A study of Mus musculus with 298 samples.

Results

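The clustered protocadherins are adhesion receptors of neurons, and here they are all rows of the count table whose gene symbol starts with Pcdha, Pcdhb or Pcdhg. The rule found 24 of the 22800 rows. The members are the 22 beta genes, Pcdhb1 to Pcdhb22, with a row each, 1 row named Pcdha and 1 row named Pcdhg. The alpha and gamma isoforms are summed in those rows, so a single alpha, gamma or C-type isoform could not be followed, and every isoform count below is over the beta genes.

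Clustered protocadherins are built from a large number of alternative first exons, each with its own promoter. In the alpha and gamma clusters the chosen first exon is spliced to constant exons that encode a shared cytoplasmic tail, while most beta genes are a single coding exon. A neuron typically uses a few of the available isoforms, a choice set by DNA methylation, CTCF and cohesin, and the proteins bind their own kind on facing membranes, which lets a neuron tell its own branches from those of others. The C-type isoforms at the ends of the alpha and gamma clusters are known to be used more broadly than the others.

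The cells were taken from the suprachiasmatic nucleus (SCN) of mice, the brain's clock in the hypothalamus. Firing was recorded by patch clamp in slices, and the cytoplasm was then aspirated and sequenced cell by cell. The animals lived in a 12 h light and 12 h dark cycle, and slices were cut near ZT0, at lights on, for day cells and near ZT12 for night cells. Every cell is labelled as day or night, as active, silent or depolarized, and as positive or negative for cFOS, the product of an immediate early gene. The labels give no strain, age, sex, transgene, animal or slice for a cell, and several cells could come from 1 slice. Of the active day cells, 51 were cFOS+ and 27 cFOS-, and of the silent ones 17 were cFOS+ and 32 cFOS-. By night there were 41 and 46 active and 34 and 34 silent cells in the same order. Depolarized cells were few: by day 2 were positive and 7 negative for cFOS, and by night 3 and 2. Finally, 2 night silent cells with opposite cFOS labels had almost the same profile (correlation of log2 values 0.9995, against 0.696 for the next pair). They were averaged as 1 cell without a cFOS label, which makes 297 cells in all.

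Because no animal is named, each group is 1 sample without replicates. The differences between groups below are descriptions of these collections of cells, and none was tested. Cells held 3187057 to 25535298 reads, with a median of 6319546, and 2341 to 8420 detected genes. All 297 cells had at least 100 CPM (the usual scaling of reads to the total of a cell) of summed neuron markers, and Snap25, a synaptic vesicle fusion protein, had 5 or more reads in 99.3% of them. Gad1, which makes the transmitter GABA, had 5 or more reads in 89.6%. Other genes of neurons reached that count in fewer cells, Syt1 in 71.04%, Gad2 in 69.36% and Slc32a1 in 34.01%. Markers of other cells were also present. The 11 microglia markers summed to at least 100 CPM in 38.05% of cells, the 12 astrocyte markers in 57.6%, the 12 oligodendrocyte markers in 46.5% and the 5 endothelial markers in 4.71%.

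Nearly every neuron held transcripts of the gene family, but the clusters differed in how widely. In the account below an isoform or row was called detected in a cell at 5 or more reads. At least 1 of the 24 rows was detected in 90.2% of cells. The Pcdhg row was detected in 83.8% of the 297 cells (exact Clopper-Pearson 95% interval 79.1 to 87.8%), and the Pcdha row in 220 cells, or 74.1% (68.7 to 78.96%). At least 1 beta isoform was detected in 119 cells, or 40.1% (34.4 to 45.9%). These intervals treat cells as independent draws and cover counting error only.

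The Pcdhg row was among the more widely detected rows of the table: 1.85% of the 22800 rows were detected in at least as many cells. Its level ran from 0 to 2470 CPM over the cells, with a median of 270.8 CPM. For the Pcdha row, 804 rows (3.53%) were detected in at least as many cells, and its level ran from 0 to 1991 CPM with a median of 75.04 CPM. Few cells lay just above the detection limit, since 243 cells held 20 or more reads of Pcdhg and 214 held 20 or more of Pcdha. The rows sum several genes and have no single length, so their levels were not set against each other or against the beta genes.

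On mouse chromosome 18 of GRCm38 the 3 clusters lie in a row on the plus strand. In the GENCODE M21 annotation the 14 alpha genes span positions 36930184 to 37187661, the 22 beta genes 37264938 to 37524479 and the 22 gamma genes 37661793 to 37841873. Of the beta genes, 18 are annotated as a single exon, and their exon lengths run from 2588 to 8695 bases.

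Beta isoforms were detected in a minority of cells, and in most of these only 1 was detected. Whether an undetected isoform was also unused by the neuron was not tested. Of the 297 cells, 178 had no beta isoform, 89 had 1, 19 had 2, 9 had 3 and 2 had 4. The mean was 0.545 isoforms per cell over all cells, and 1.36 over the 119 cells with any. These detections made up 47 different sets of isoforms, and 29 of these sets were seen in 1 cell each. The most frequent set was Pcdhb17 alone, in 14 cells, followed by Pcdhb7, Pcdhb9 and Pcdhb14, each alone in 8 cells. Of the 22 isoforms, 20 were found alone in at least 1 cell.

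**Figure D1:**
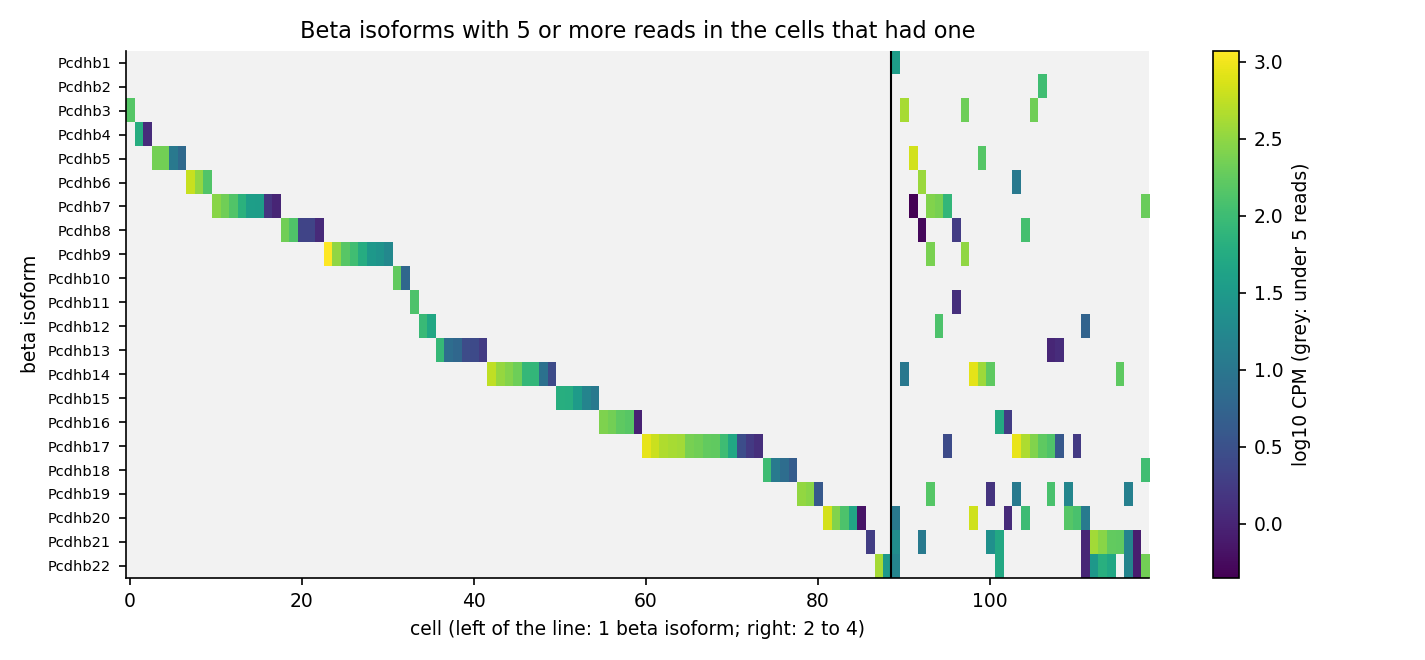
Each column is 1 of the 119 cells with a beta isoform, each row a beta gene in its order along the cluster, and colour is log10 CPM where the cell held 5 or more reads. Left of the line are the 89 cells with 1 isoform, sorted by isoform; right of it the 30 cells with 2 to 4, where Pcdhb21 and Pcdhb22 often appear in the same column.

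A detected beta isoform was usually strong. In the cells that had it the level of an isoform ran from 0.447 to 1177 CPM, with a median of 82.7 CPM. In 110 cases the cell held 100 or more reads and in 52 it held 1000 or more, while 31 rested on 5 to 19 reads. A further 118 cases had 1 to 4 reads and were counted as not detected. Of these, 77 were in cells that had another beta isoform and 41 in cells that had none.

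The levels were set beside those of the 7635 other rows detected in as few cells, from 1 to 22. The median level in the cells with 5 or more reads had a median over the 22 beta genes of 76.9 CPM, with an interquartile range of 30.3 to 147.6 CPM. Over the rarely detected rows it was 25.1 CPM, with an interquartile range of 7.28 to 65.1 CPM. The interquartile ranges overlap, and levels were not scaled by gene length here. Among gene and cell pairs with any read, 57.9% held 5 or more reads for the 280 such pairs of the beta genes, against 64.1% for the rarely detected rows.

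In most cells 1 isoform held nearly all the beta reads. Over the 120 cells with 5 or more beta reads in all, the first isoform held a median of 100% of them. It held over 99% in 86 cells and under 90% in 26 cells, with a lowest share of 23.5%. Where a cell had 2 or more isoforms, the second reached from 0.065 to 100% of the first, with a median of 51.5%, and at least 10% of it in 23 of the 30 cells. Of these 30, 8 held Pcdhb21 with Pcdhb22, described below, and in the other 22 the second reached at most 97.7% of the first and at least 10% of it in 16 cells.

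**Figure D2:**
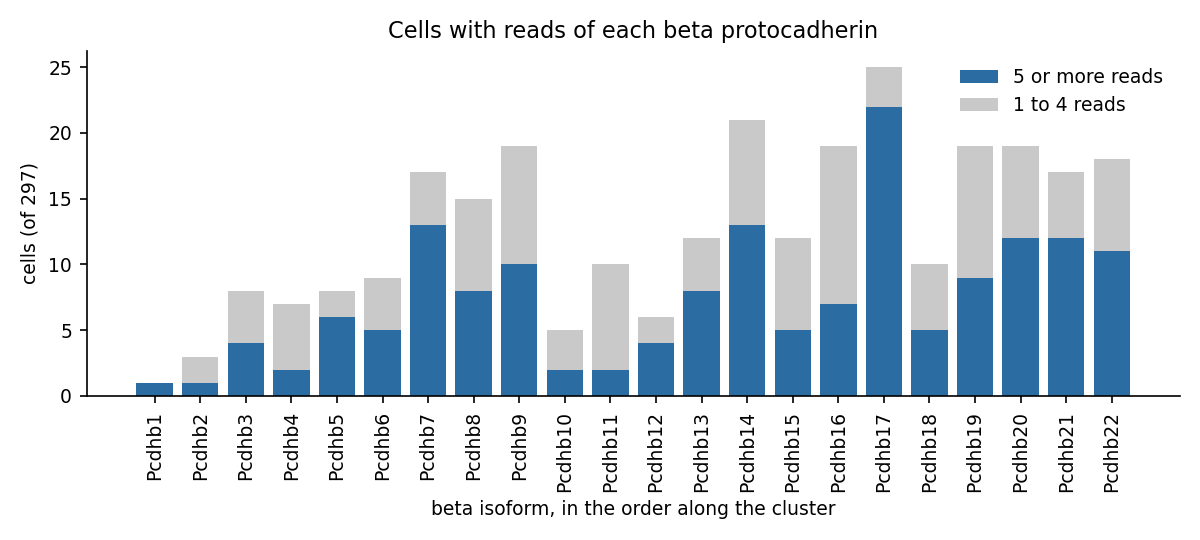
Bars give the number of cells, of 297, with 5 or more reads (blue) and with 1 to 4 reads (grey) of each beta gene, in the order along the cluster. Pcdhb17 stands highest with 22 cells, and Pcdhb1 and Pcdhb2 lowest with 1 cell each.

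Individual beta genes differed widely in the number of cells in which they were detected. Pcdhb17 was detected in 22 cells (7.41%, exact interval 4.70 to 11.0%), and its level in them ran from 1.29 to 909 CPM with a median of 174.5 CPM. Pcdhb7 and Pcdhb14 followed with 13 cells each (4.38%, 2.35 to 7.37%), with medians of 83.4 and 168.999 CPM in those cells. Pcdhb20 and Pcdhb21 were detected in 12 cells each and Pcdhb22 in 11. The intervals of Pcdhb17 and of the isoforms next in order overlap.

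At the other end, Pcdhb1 was detected in a single cell, a day silent cFOS- neuron that held 35.4 CPM of it, and no other cell held a read of Pcdhb1. Pcdhb2 was detected in 1 day active cFOS+ cell at 105.1 CPM, and Pcdhb4, Pcdhb10 and Pcdhb11 in 2 cells each. Pcdhb3 and Pcdhb12 were found in 4 cells each, Pcdhb6, Pcdhb15 and Pcdhb18 in 5 each, Pcdhb5 in 6, Pcdhb16 in 7, Pcdhb8 and Pcdhb13 in 8 each, Pcdhb19 in 9 and Pcdhb9 in 10. Detection in few cells did not always go with a low level. Pcdhb3 ran from 145.7 to 415.6 CPM in its 4 cells. Pcdhb8 and Pcdhb13, in contrast, had medians of 2.23 and 2.67 CPM in theirs, although single cells reached 212.5 and 88.1 CPM.

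Detections were uneven along the cluster. The 12 genes at its start, Pcdhb1 to Pcdhb12, gave 58 detections in 52 cells, and the 10 genes at its end, Pcdhb13 to Pcdhb22, gave 104 detections in 79 cells. The detections at the end include 22 of Pcdhb17, and 8 cells with both Pcdhb21 and Pcdhb22, a pair described below. Annotated exon lengths ran from 2801 to 8695 bases at the end and from 2588 to 4419 bases at the start. The part of these in the difference was not tested. No test was made of the difference itself, since cells from 1 animal cannot be told from cells of another.

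The highest level of any beta isoform in a cell was 1177 CPM, for Pcdhb9 in a night active cFOS- neuron. Scaled by annotated exon length, this was 385.3 CPM per kb. Pcdhb17 reached 909 CPM in a day active cFOS+ cell and 870.3 CPM in a night silent cFOS- cell. Pcdhb14 reached 847.6 CPM in a day active cFOS+ cell, Pcdhb20 714.7 CPM in a day silent cFOS- cell and Pcdhb5 688.0 CPM in a night silent cFOS+ cell. Per kb of exon, the peaks were 195.1 CPM for Pcdhb17, 97.5 CPM for Pcdhb14, 200.8 CPM for Pcdhb20 and 194.6 CPM for Pcdhb5. Single cells therefore carried much of the signal of a gene: the top cell held from 8.76% of all reads of Pcdhb17 to 100% of those of Pcdhb1.

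Among the 30 cells with several beta isoforms, 1 combination recurred. Pcdhb21 and Pcdhb22, the last genes of the cluster, were detected together in 8 cells, out of 12 with Pcdhb21 and 11 with Pcdhb22. Every other pair of isoforms shared at most 2 cells. The 8 cells carried labels of 5 groups, day and night, active and silent. In these cells Pcdhb21 and Pcdhb22 stood at 391.97 and 30.2 CPM, 291.5 and 63.5 CPM, 178.4 and 49.2 CPM, and 21.3 and 15.97 CPM. In the other 4 cells the counts of the genes were equal, at 51.97, 15.5, 1.06 and 0.840 CPM each. Pcdhb21 was thus the higher or the equal of Pcdhb22 in all 8.

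Equal counts of 5 or more reads occurred in none of the 50 other cases of a pair of beta isoforms in a cell. Pcdhb21 (37513621 to 37518325) and Pcdhb22 (37517871 to 37524479) are the 1 pair of neighbouring beta genes whose annotated exons overlap. Whether the same reads were counted for both rows was not tested. Counted as 1 isoform, the pair brings the mean from 0.545 to 0.519 isoforms per cell and the cells with 2 or more isoforms from 30 to 26. Of the 58 cases of a pair in a cell, 11 (19.0%) were of neighbouring genes, where 9.09% of all possible pairs are neighbours. Without Pcdhb21 with Pcdhb22, it was 3 of 50 (6.0%).

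The beta genes share sequence with each other, which could move reads between rows. Of the windows of 50 bases in a beta gene's exons, a median of 4.26% also occur in another beta gene. The share ran from 0% for Pcdhb1 to 12.0% for Pcdhb12, and it was 11.3% for Pcdhb21. No source used here says how reads that match several places were counted, so a second isoform at a small share of the first is uncertain.

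The alpha and gamma rows were mostly detected in the same cells, and a beta isoform was found in fewer of them. All 3 clusters were detected in 94 cells, alpha and gamma without beta in 117, gamma alone in 26, gamma and beta in 12, beta alone in 10, alpha alone in 6, alpha and beta in 3, and none in 29. The Pcdhg row was detected in 95.9% of cells with Pcdha (exact interval 92.4 to 98.1%) and in 49.4% of cells without it (37.8 to 60.995%). A beta isoform was detected in 44.1% of cells with Pcdha and 28.6% of those without, and in 42.6% of cells with Pcdhg and 27.1% of those without. Across the 297 cells the levels of Pcdha and Pcdhg, as log2 (CPM + 1), had a Pearson correlation of 0.55 and a Spearman correlation of 0.45. The number of beta isoforms had correlations near 0 with the levels of both rows (Pearson and Spearman 0.08 and 0.05 for Pcdha, 0.06 and -0.01 for Pcdhg). Cells with Pcdha also held more genes, a median of 4751 against 3732, and this number and the library preparation are shared by all genes of a cell, so their part in the relation was not tested.

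The number of beta isoforms moved with the number of genes detected in a cell (Pearson correlation 0.32 over 297 cells), and not with its total reads (-0.006). A beta isoform was found in 51.4% of cells above the median number of genes and in 28.9% of the others. By total reads the shares were 40.5% above the median and 39.6% at or below it. With every cell thinned to 4000000 reads, which left out 19 shallower cells, 38.1% of 278 cells had a beta isoform.

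Neuropeptide classes of the SCN were compared at 100 CPM. Cells with Vip, the peptide of the light-receiving core, had a beta isoform in 22 of 55 cases (40.0%), and cells without it in 97 of the rest (40.1%). Cells with Avp, the peptide of the shell, had one in 30 of 102 cases (29.4%, exact interval 20.8 to 39.3%), and cells without Avp in 89 of 195 (45.6%, 38.5 to 52.9%). Leaving cells with Vip out of the Avp class gave 31.6% against 44.1% for the rest. In both comparisons the intervals overlap, narrowly for the first. Such overlap does not decide whether the shares differ, and no interval of the difference is given for this split. Avp cells had a median of 4258.5 detected genes and the rest 4649, and markers of astrocytes were at 100 CPM in 47.1% of Avp cells and 63.1% of the rest, those of microglia in 32.4% and 41.0%. The part of these in the difference was not tested. Cells with microglia markers at 100 CPM had a beta isoform in 38.9% of cases, and cells below that in 40.8%.

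Detection also varied with the cell number in the sample titles, whose meaning the labels do not give. In the cells with a number up to the median, Pcdha was detected in 80.5% and Pcdhg in 90.6%. In the cells with a higher number, the shares were 67.6% and 77.0%. The beta share was 42.3% in the first and 37.8% in the second.

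All 3 clusters were found in each of the 8 groups of active and silent cells. The share with a beta isoform ran from 23.5% of the 17 day silent cFOS+ cells to 47.1% of the 34 night silent cFOS- cells. The order between these was day active cFOS- (29.6%), night active cFOS+ (36.6%), day active cFOS+ (39.2%), night silent cFOS+ (44.1%), night active cFOS- (45.7%) and day silent cFOS- (46.9%). The exact intervals of the lowest and the highest, 6.81 to 49.9% and 29.8 to 64.9%, overlap, as do those of all neighbours in the order. Pcdha was detected in 68.3 to 85.3% of the cells of a group, lowest in night active cFOS+ and highest in night silent cFOS- cells. Pcdhg was detected in 76.5 to 87.5%, lowest in day silent cFOS+ and highest in day silent cFOS- cells.

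**Figure D3:**
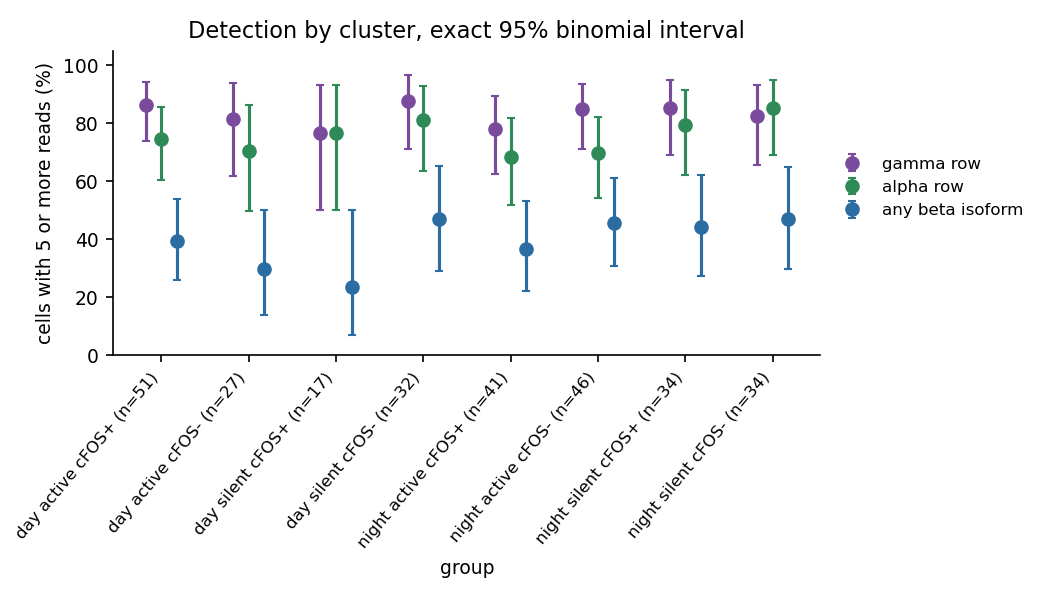
Points give the percent of cells with 5 or more reads of the gamma row, the alpha row or any beta isoform in the 8 groups of active and silent cells, and bars the exact 95% binomial interval. In each group the beta share lies below both other shares, and the beta intervals of the groups overlap one another.

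The level of Pcdhg in the groups of active and silent cells had medians from 188.996 CPM (day silent cFOS+) to 456.6 CPM (day active cFOS-). That of Pcdha had medians from 21.96 CPM (day silent cFOS+) to 110.1 CPM (day silent cFOS-). In every one of these groups both rows were at 0 in at least 1 cell, and the highest cell lay between 751.5 and 1991 CPM for Pcdha and between 1161 and 2470 CPM for Pcdhg. The ranges of the groups therefore overlap.

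**Figure D4:**
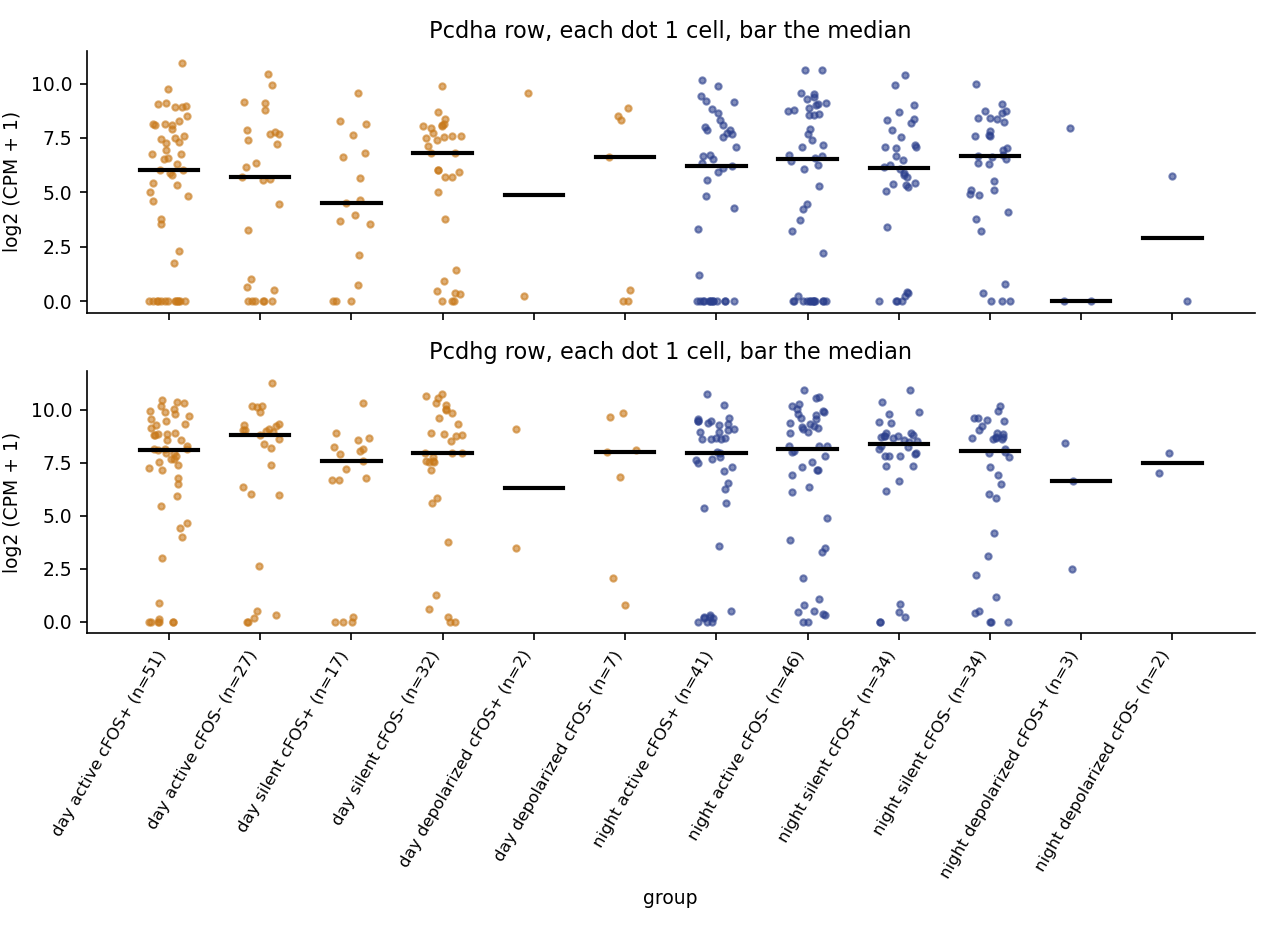
Each dot is 1 cell, by group, with log2 (CPM + 1) of the Pcdha row above and of the Pcdhg row below, and a bar at the group median. Cells near 0 and cells at high levels occur in every group of active and silent cells, and the spread within a group exceeds the differences between medians.

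Day against night, active against silent and cFOS+ against cFOS- were compared over active and silent cells, each also within the 4 strata formed by the other labels. The 3 contrasts divide the same cells and are not independent. A beta isoform was found in 37.0% of 127 day and 43.6% of 156 night cells, a difference of -6.58 percentage points (Newcombe 95% interval -17.7 to 4.90). It was found in 38.8% of 165 active and 43.2% of 118 silent cells (-4.43, -15.9 to 7.04). By cFOS label the shares were 37.8% of 143 positive and 43.2% of 139 negative cells (-5.40, -16.6 to 5.99). All 3 intervals include 0 and also differences of over 15 points, so neither a difference nor its absence can be read from them. The mean number of beta isoforms was 0.50 by day and 0.61 by night, 0.49 in active and 0.65 in silent cells, and 0.48 in cFOS+ and 0.63 in cFOS- cells. Each contrast changed sign between strata. Day cells had the higher mean in 2 strata, active cFOS+ and silent cFOS-, and active cells had it in the day cFOS+ stratum (by 0.176). The cFOS+ cells had the higher mean among day active cells (by 0.1002), and both means were equal among night silent cells. The difference in beta share also moved with the cells included. Day against night, it was -17.1 points without cells at 100 CPM of microglia markers, 3.83 points without those at 100 CPM of astrocyte or oligodendrocyte markers, and -11.3 and -1.07 points in the lower and higher cell numbers. Active against silent, it was -10.04 points without microglia-marker cells, and -10.4 and 1.98 points in the lower and higher cell numbers. For the cFOS labels it ran from -9.80 points in the lower to -1.07 points in the higher cell numbers.

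In the pooled groups the levels of Pcdha, Pcdhg and the summed beta genes had log2 ratios from -0.38 to 0.49. For each group the reads of its cells were added up, scaled to CPM and compared as log2 of (CPM + 1) over (CPM + 1). Pcdha stood at 175.7 CPM by day and 181.05 CPM by night, a log2 ratio of -0.04, and Pcdhg at 438.8 and 391.8 CPM, a ratio of 0.16. In active and silent cells Pcdhg stood at 413.9 and 411.5 CPM (0.01). Pcdha was higher in active cells by level, at 203.5 against 144.3 CPM (0.49), but was detected in fewer of them, 70.9% against 81.4%. Pcdhg was lower in cFOS+ cells, at 358.5 against 467.5 CPM (-0.38), in 3 of 4 strata, and night silent cells had the opposite sign (0.18). Pcdha was at 164.7 and 193.9 CPM in cFOS+ and cFOS- cells (-0.23). Without microglia-marker cells the Pcdha ratio was -0.86 for this contrast and 0.36 for day against night. The 22 beta genes summed to 73.0 CPM by day and 95.4 CPM by night, 84.5 and 86.6 CPM in active and silent cells, and 78.0 and 88.2 CPM in cFOS+ and cFOS- cells.

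Of the 24 rows, 17 were at 1 CPM or more in the day or night cells, and their ratios scattered to both sides. By day 8 of the 17 were higher, where 48.5% of all 14221 rows at that level were, and the median log2 ratio was -0.03, against -0.02 over all rows. The members' median was not stable: it ran from -1.27 to 0.07 in the 4 strata, and was -1.10 without cells at 100 CPM of microglia markers. The median over all rows without those cells is not given here. A fold of 2 was passed toward day by 2 rows and toward night by 6, where 9.68% of all rows passed it toward day and 9.7% toward night. Among the 3605 rows detected in as few cells as the beta genes, 26.9% passed it toward day and 23.4% toward night, 50.3% in all. Such folds are therefore frequent among sparse genes, and the members' count is read against that share. The same direction in all 4 strata was shown by 2 of the 17 members, against 12.9% of all rows and 10.6% of the sparse ones.

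In active against silent cells 7 of 16 measured rows were higher in active cells, where 50.8% of all rows were, with a median of -0.11 against 0.01 over all 14214 rows. This order was not kept: 12 of 18 members were higher in active cells among the lower cell numbers (median 0.94), 11 of 17 among the higher (0.49), and 13 of 24 with no minimum CPM (0.045). A fold of 2 was passed by 1 row toward active and 2 toward silent cells, where 9.76% and 8.34% of all rows, and 24.9% and 22.3% of the sparse rows (47.3% in all), did so. No member had the same direction in all 4 strata, against 12.7% of all rows and 9.89% of the sparse ones. In cFOS+ against cFOS- cells 7 of 17 were higher in cFOS+ cells, with a median of -0.29 against -0.05 over all 14233 rows and -0.16 over the 3617 sparse rows. Without the highest cell on either side the median was -0.79. A fold of 2 was passed by 5 rows each way, where 8.06% of all rows did so toward cFOS+ and 10.6% toward cFOS-, and 21.2% and 27.2% of the sparse rows (48.4% in all). The same direction in all 4 strata was shown by 3 of 17, against 12.1% of all rows and 8.52% of the sparse ones.

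**Figure D5:**
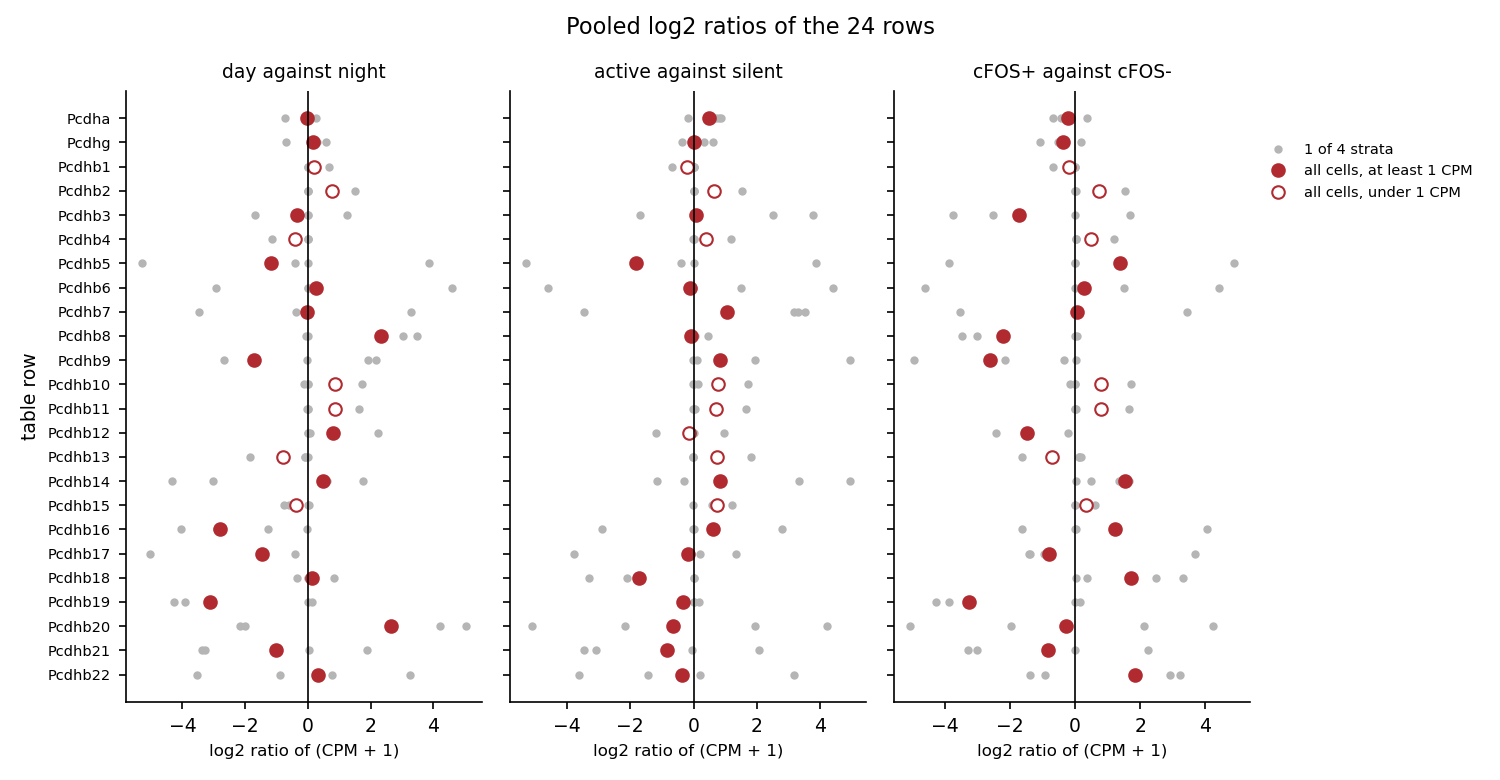
Each panel shows 1 contrast, with the log2 ratio of (CPM + 1) for each of the 24 rows as a large mark (filled at 1 CPM or more in a group, open below) and the 4 strata as small grey dots. Pcdha and Pcdhg lie between -0.38 and 0.49, while the strata of single beta genes spread to both sides of 0.

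Pcdhb17 was the 1 member detected in at least 10 of the cells compared that kept its direction in all 4 strata of day against night. It was detected in 6 of 127 day and 16 of 156 night cells, and its pooled level was 8.30 CPM by day and 24.6 CPM by night, a log2 ratio of -1.46. The highest day cell held 909 CPM and the highest night cell 870.3 CPM, so the ranges overlap. The stratum ratios were -0.40 in active cFOS+, -5.04 in active cFOS-, -1.53 in silent cFOS+ and -1.49 in silent cFOS- cells. All 11 microglia markers were higher by day, and these summed to at least 100 CPM in 43.3% of day and 32.7% of night cells, with ranges from 0 to 34382 and from 0 to 31204 CPM. Of the 12 astrocyte markers 10 were higher by day (median log2 ratio 1.37), and of 7 measured oligodendrocyte markers 6 (0.66). Their part in the Pcdhb17 difference was not tested. Without the cells at that level of microglia markers the ratio of Pcdhb17 was -1.10, and in the cells with lower and higher cell numbers it was -1.16 and -1.76. The Pcdhb17 cells by day fell in the active cFOS+, silent cFOS+ and silent cFOS- groups.

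Pcdhb14 was the corresponding member in cFOS+ against cFOS- cells. It was detected in 8 of 143 cFOS+ cells and 5 of 139 cFOS- cells, at 17.6 and 5.39 CPM, a log2 ratio of 1.54, or 1.21 with the highest cell on either side left out. The highest cell held 847.6 CPM among the cFOS+ and 271.7 CPM among the cFOS- cells. Its stratum ratios were 1.65 in day active, 0.04 in day silent, 0.48 in night active and 1.35 in night silent cells. No day silent cell had 5 or more reads of Pcdhb14. The ratio in that stratum therefore rests on counts below the detection limit, and only the other strata held cells with the gene. Microglia markers were at 100 CPM or more in 30.8% of cFOS+ and 44.6% of cFOS- cells, and 1 of 11 was higher in cFOS+ cells. Without those cells the Pcdhb14 ratio was 1.25. No member met the same conditions in active against silent cells.

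Several other beta genes were found on 1 side of a contrast in a handful of cells, and these were picked out after their values were seen. Where no cell had the gene, the upper limit is given as 3 cells over the number of cells, not as a Clopper-Pearson bound. Pcdhb16 was detected in 0 of 127 day cells, which allows a share of up to 2.36%, and in 6 of 156 night cells (3.85%). A further Pcdhb16 cell was a day depolarized one, at 0.957 CPM, so the gene was not confined to night. Pcdhb12 was detected in 0 of 143 cFOS+ cells, which allows up to 2.10%, and in 4 of 139 cFOS- cells (2.88%). Pcdhb18 was detected in 5 of 143 cFOS+ cells (3.50%) and 0 of 139 cFOS- cells, which allows up to 2.16%. Pcdhb15 was detected in 4 of 165 active cells (2.42%) and 0 of 118 silent cells, which allows up to 2.54%. Pcdhb19 was detected in 1 day and 8 night cells and in 1 cFOS+ and 8 cFOS- cells, Pcdhb8 in 7 day and 1 night cells, and Pcdhb20 in 2 cFOS+ and 9 cFOS- cells. With 22 genes and 3 contrasts, counts of this size are few cells each and were not tested. The share of equally sparse rows that lie on 1 side of a contrast is not given here. These counts are therefore not read as differences between the groups.

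Genes that govern the choice of a protocadherin promoter were present at low to moderate levels in the same cells. Trim28, a corepressor that recruits silencing enzymes, was detected in 64.6% of the 297 cells, the methyltransferase gene Dnmt3a in 55.2%, Ctcf in 31.3% and the cohesin genes Smc1a and Smc3 in 41.4% and 44.4%. Dnmt3b, the methyltransferase known from embryos to mark these promoters, was detected in 3 cells (1.01%). Of 19 measured genes of this list, 8 were higher by day, 11 higher in active and 9 higher in cFOS+ cells, with median log2 ratios of -0.08, 0.05 and -0.01. These lie near the medians over all rows. Smchd1, an SMC-type protein of gene silencing, stood at 14.4 CPM by day and 33.9 CPM by night (-1.18), and Ehmt2, a histone methyltransferase, at 52.7 and 87.6 CPM (-0.72), both with the same sign in all 4 strata. These were the 2 of 19 with 1 direction in all strata, against 12.9% of all rows. In cFOS+ against cFOS- cells Smc3 stood at 136.6 and 94.4 CPM (0.53) and Pds5b, a cohesin regulator, at 59.7 and 85.7 CPM (-0.51), again the 2 of 19 with 1 direction, against 12.1% of all rows. In active against silent cells 0 of 19 had 1 direction.

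Partners that act downstream of protocadherins, kinases, the WAVE actin complex and the proteases that cut the proteins, were also spread around the medians of all rows. Of 17 measured genes, 9 were higher by day, 11 in active and 8 in cFOS+ cells, with median log2 ratios of 0.09, 0.14 and 0.00. The same direction in all 4 strata was shown by 2, 3 and 2 of them, against 12.9%, 12.7% and 12.1% of all rows. The genes below, other than Rac1, are from these. Rac1, the GTPase upstream of the WAVE complex, was detected in 83.2% of cells. Cyfip1, a subunit of that complex, stood at 53.5 CPM by day and 20.2 CPM by night (1.36), where all 11 microglia markers were also higher by day (median log2 ratio 1.72) and their part was not tested. By day and night, Ptk2, a focal adhesion kinase inhibited by protocadherins, stood at 127.2 and 162.4 CPM (-0.35). In active against silent cells Adam10, the sheddase, stood at 35.9 and 19.1 CPM (0.87), and the gamma-secretase genes Psen2 and Ncstn at 47.3 and 68.2 CPM (-0.52) and 195.3 and 162.1 CPM (0.27). In cFOS+ against cFOS- cells Ncstn stood at 214.2 and 147.3 CPM (0.54) and Fyn, a kinase, at 110.0 and 80.5 CPM (0.45).

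The protocadherins encoded outside the clusters gave a comparison within the superfamily. Of 11 measured genes, 5 were higher by day (median log2 ratio -0.02) and 8 in active cells (0.10). In cFOS+ cells 10 of the 11 were higher than in cFOS- cells, with a median of 0.38, where 46.6% of all rows were higher there. The medians of the list in the 4 strata ran from -0.01 to 0.64. Of the 11 genes, 1 had the same direction in all 4 strata of this contrast, against 12.1% of all rows. This was Pcdh10, at 31.5 against 23.999 CPM (0.38). Pcdh19, an adhesion protein known for its part in epilepsy, stood at 101.8 CPM by day and 60.7 CPM by night (0.74) and at 94.8 CPM in active and 57.5 CPM in silent cells (0.71), with the same sign in all 4 strata of both. In each of these contrasts 2 of 11 genes kept 1 direction, against 12.9% of all rows for day and night and 12.7% for firing. Pcdh9 and Pcdh19 were detected in 34.3% and 38.05% of cells, each in more cells than any beta gene. That did not hold for the whole list. Pcdh8, Pcdh12, Pcdh18 and Pcdh20 were detected in 21, 1, 6 and 22 cells, against 22 for Pcdhb17.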

How the data were processed

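The authors deposited raw counts of reads per gene for 298 cells, which were used as deposited. Their tables of normalized values and logarithms were not used. Per the submitters' processing notes the build was GRCm38.p4 and the tools included STAR and DESeq2. For the counting tool, the annotation, strand and reads with several matches, the sources used here give nothing. Per the labels, libraries were made with Nextera XT, and no molecular identifiers are mentioned.

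Members and lists were chosen with earlier results of these data known. Isoform rows had been assumed for all 3 clusters, but alpha and gamma each had 1 row, so results planned for their isoforms are for those rows and the number of isoforms is over beta genes. Named were the 3 beta genes in the most cells and the 1 in the fewest (ties shown), the 5 highest in a single cell, and, for each contrast, members detected in at least 10 cells with 1 direction in all 4 strata. Of other lists, up to 3 genes at 20 CPM or more with 1 direction in all strata were named for a contrast, by the size of the log2 ratio. Genes given only with the share or number of cells that held them, such as Trim28 and Rac1, were named outside that rule. Detection means 5 or more reads. CPM divided counts by a cell's or group's total, and ratios used a pseudocount of 1 CPM. Intervals are exact Clopper-Pearson or Newcombe, at 95%, and cover counting error only. The limit beside a count of 0 is 3 over the number of cells. No cell was filtered out and no doublet caller was run, since each library came from 1 pipette. Alternatives varied the detection limit, depth, cells, minimum CPM, pseudocount and weighting. The pooled ratio was tested on simulated counts of genes at 20 CPM or more over all cells. Every beta gene lay below that level, with Pcdhb17 highest at 16.6 CPM, so the simulation did not cover ratios of single beta genes. Gene positions and exon lengths are from GENCODE M21 (GRCm38), and no sequences are printed. Scripts used Python 3.11.15, numpy 2.4.6, pandas 2.3.3, scipy 1.17.1 and matplotlib 3.10.9.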

Additional observations from a re-analysis of the deposited data

Results flagged for a closer look

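Among the 7 day depolarized cFOS- cells, the summed level of the beta isoforms was 129.7 CPM in 1 cell and between 0 and 0.957 CPM in the others. The gap to the next cell was 0.993 of the group's range, above Dixon's 95% limit for 7 cells. For normally distributed values chance would place about 1 in 20 groups above that limit. That rate does not hold for this quantity, since no beta isoform was detected in 178 of all 297 cells. Levels of Pcdha and Pcdhg in the same 7 cells, from 0 to 470.8 and from 0.697 to 923.5 CPM, stayed within it.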

How the results depend on the processing

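Among the alternative values of 18 results, 145 stayed within a set tolerance of the reported value and kept its sign, 19 moved and 8 changed sign. For counts of members, differences in mean isoform number and median log2 ratios, the tolerance was wide and was not a sampling error. The day against night difference, for example, went from -0.113 to -0.240 isoforms per cell without microglia-marker cells and was counted within it. The 145 are therefore not read as agreement within sampling error. None of these results was tested, so no threshold was crossed. Counting 1 or more reads as detected gave 96.6% of cells with any member, 50.2% with a beta isoform, 92.3% with Pcdhg and 0.943 beta isoforms per cell. Counting 20 or more gave 33.3% with a beta isoform, 0.441 isoforms per cell, and a difference in beta share between active and silent cells of 1.49 points. Without cells that held 100 CPM of astrocyte or oligodendrocyte markers (81 left), Pcdha was detected in 65.4%, and day cells exceeded night cells by 0.108 isoforms per cell and 3.83 points of beta share. Without microglia-marker cells the day against night median over the members was -1.10. In the lower cell numbers 93.96% of cells had any member, 80.5% Pcdha and 90.6% Pcdhg, and 12 of 18 members were higher in active cells (median log2 ratio 0.94). In the higher cell numbers 67.6% had Pcdha and 77.0% Pcdhg, and active cells exceeded silent cells by 1.98 points of beta share, with 11 of 17 members higher (median 0.49). With no minimum CPM, the medians were 0.047 for day against night and 0.045 for active against silent, with 13 of 24 higher in active and 12 of 24 in cFOS+ cells. At 5 CPM or more 4 of 11 members were higher by day, and by differences of detection shares 4 of 16 were higher in active cells. The causes were not tested. A median log2 ratio could not be given for differences of shares. The counting of the near-identical pair as 2 cells, and of Pcdhb21 and Pcdhb22 as 1 isoform, was chosen after seeing the data and changed no sign. No paired analysis was possible because the labels name nothing by which cells of different groups could be paired. Without named animals or slices, all intervals cover counting error only, and contrasts of single beta genes rest on 22 cells or fewer.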

Other observations

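Predicted gene models that run from the alpha into the gamma cluster were also in the table and lie outside the naming rule. Gm37013 (chromosome 18, positions 36969916 to 37833296, GRCm38) was detected in 56.9% of cells, at 0 to 90.7 CPM with a median of 5.32 CPM. All of these cells also had Pcdha and Pcdhg, and in each of them the count of Gm37013 was at or below both of those rows. Gm37388, which starts at position 36975941 and has the same end, was detected in 168 cells, of which 167 had both rows. In 156 of the 167 cells with both models the Gm37013 and Gm37388 counts were equal. Gm37013 amounted to a median of 24.3% of the Pcdha count and 4.54% of the Pcdhg count in its cells. Whether these reads come from transcripts that join the clusters or from exons shared by the models was not tested.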
